A study of Mus musculus with 18 samples.

Results

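Histone cluster genes are the protein-coding genes with symbols of the form Hist1h, Hist2h, Hist3h or Hist4h, which lie in tandem groups and encode the linker histone H1 and the core histones H2A, H2B, H3 and H4. They were chosen by symbol from the GENCODE M21 mouse annotation (GRCm38), which gave 67 genes among the 53468 gene identifiers of the count table. Of these, 54 lie on chromosome 13 (Hist1), 10 on chromosome 3 (Hist2), 2 on chromosome 11 (Hist3) and 1 on chromosome 6 (Hist4). By product there are 6 H1, 18 H2A, 18 H2B, 12 H3 and 13 H4 genes.

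The libraries came from forebrain, midbrain and hindbrain dissected at postnatal day 25 from 3 Fmr1CRE knock-in mice and 3 wild-type (WT) mice of the same litter on a C57BL/6 background, giving 18 libraries and 3 per group. In Fmr1CRE mice a conserved regulatory element assigned to Fmr1, rather than the coding sequence of that gene, carries a variant introduced by CRISPR/Cas9. Which knock-in line the sequenced mice belonged to is not given in the sources used here. RNA was selected by its poly(A) tail before random-primed, single-end sequencing, and libraries held 22455512 to 28061185 counts. The dissections carried their markers: 10 forebrain genes summed to 422.1 to 583.0 CPM (counts scaled by library size) in forebrain, 227.3 to 369.7 in midbrain and 31.1 to 46.7 in hindbrain, and 12 hindbrain genes, most of them Hox genes, to 0.132 to 4.61, 36.6 to 96.4 and 255.5 to 450.3 CPM. The midbrain list of 10 genes stood at 77.5 to 154.1 CPM in midbrain and 62.5 to 91.7 in hindbrain, so that these regions overlapped in it.

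Most histone mRNAs of the clusters are made while DNA is replicated. Unlike other mRNAs they normally end just after a short stem-loop, to which the stem-loop binding protein attaches, and carry no poly(A) tail. Some of these genes also give polyadenylated transcripts, when the stem-loop is read through to a poly(A) signal further downstream, and such transcripts are known from cells that have left the cell cycle, as most brain cells have at this age. A poly(A)-selected library therefore reports the tailed transcripts of these genes and little of the tailless ones. In tissue RNA, a change in the cells that hold a transcript and a change in the amount per cell cannot be told apart.

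The stem-loop and the poly(A) signal are the sequences that separate both kinds of end. Stem-loops are shown for the forms with most counts. Transcript ends are shown for Hist1h1c, which had the most counts, and Hist3h2ba, which had the highest level per transcript length. All are from GENCODE M21 transcripts on GRCm38, read 5′ to 3′ on the transcript strand. Capitals mark the loop in the stem-loops and the poly(A) signal AATAAA in the transcript ends.
Stem-loop of 24 H1, H2A, H2B and H3 genes: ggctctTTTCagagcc
Stem-loop of 7 H4 genes: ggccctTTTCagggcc
Stem-loop of Hist1h4i and Hist2h4: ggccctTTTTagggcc
End of the Hist1h1c transcript: AATAAAaagcgtttagttttcattca
End of the Hist3h2ba transcript: AATAAAtttggttcaattttggccaca
The H4 form differs from the common one within the stem, on both sides, so that the pairing of the stem is kept. The stem-loop was found in an annotated transcript of 46 of the 67 genes (68.7%), against 110 of all 21951 protein-coding genes (0.5%).

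The annotated transcripts fell into 4 kinds by what follows the stem-loop, taking for each gene the transcript with the most estimated reads over all libraries. In 22 genes the transcript ran on for more than 100 bases past the stem-loop, a limit set after the lengths had been seen, and these genes held 60.2% of all counts of the 67 genes. A poly(A) signal, AATAAA or ATTAAA, lay in the last 50 bases of 11 of these 22 transcripts, against 50.2% of all protein-coding transcripts. In another 22 genes the transcript ended within 100 bases of the stem-loop, and these held 9.5% of the counts, of which Hist2h2aa2 alone gave 7319 of 9388. A further 11 genes had flanking sequence but no stem-loop in the leading transcript (25.1% of counts), and 12 were annotated as coding sequence only (5.1%), so that the annotation gives no end for them. The median gene of the first kind had 371 counts over all libraries and the median gene ending at the stem-loop had 13.5. These counts do not allow for transcript length, and the kinds were set by annotated length after the stem-loop. Reads past the annotated end of a transcript would not be counted for it. The part of the annotation in this contrast was not tested.

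**Figure D1:**
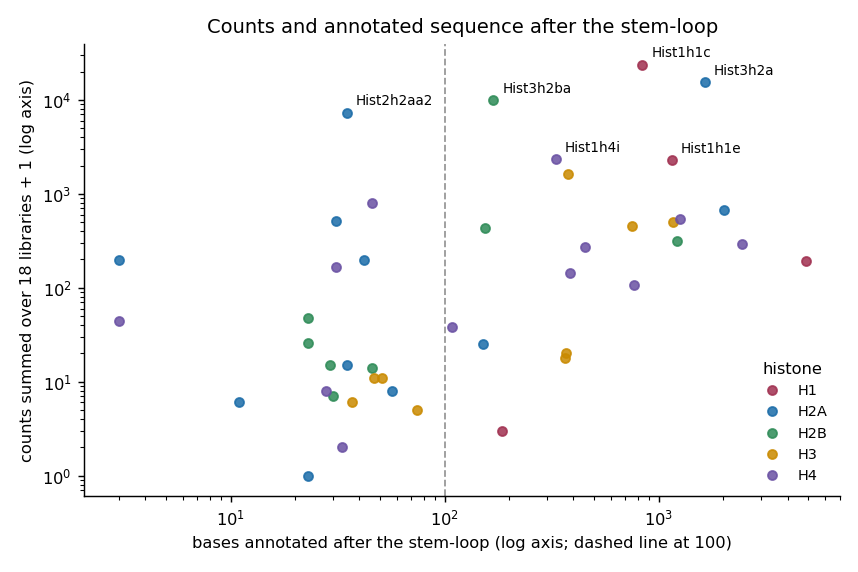
Counts of each histone cluster gene summed over 18 libraries (vertical, log axis, 1 added) against the bases annotated after its stem-loop (horizontal, log axis), for genes whose leading transcript holds one, coloured by histone. Hist1h1c, with 840 bases after the stem-loop, and Hist3h2a, with 1643, had the highest counts, and left of the dashed line at 100 bases Hist2h2aa2 stands above the rest. The counts do not allow for transcript length.

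Together the 67 genes took 98527 counts, 0.0214% of all counts, with 0.0165% to 0.0339% per library. At least 1 count was seen for 63 genes, and 23 were seen in every library. The 4 genes with no count in any library were Hist1h2aa, Hist1h2ag, Hist1h2an and Hist1h2ba. Since 4 genes held 66.6% of the counts and 10 genes held 90.9%, most of the 67 genes were close to absent from these libraries. The filter on low counts kept 29 of them in the analysis of all 18 libraries, and 48 of the 67 had a mean RPKM (reads per kilobase of transcript, scaled by library size) under 1.

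Per transcript length the H2B gene Hist3h2ba was the highest, with a mean of 51.4 RPKM (41.1 to 66.8 over 18 libraries). It is one of the 2 genes on chromosome 11, at chr11:58948920-58949533 on the plus strand. Next came Hist1h2bc, another H2B gene, at chr13:23684199-23692908, with 46.95 RPKM (33.7 to 79.5). The ranges of both overlapped those of the H2B gene Hist1h2bq (36.0 RPKM, 15.6 to 64.7), the H2A gene Hist2h2aa2 (35.55 RPKM, 24.1 to 46.7) and the linker histone gene Hist1h1c (33.1 RPKM, 14.6 to 65.1). The order of these 5 was therefore not separated beyond the spread between libraries. Hist1h1c, at chr13:23738808-23740367 on the plus strand, encodes the somatic linker histone H1.2, which binds the DNA between nucleosomes.

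The H2A gene Hist3h2a, neighbour of Hist3h2ba at chr11:58954685-58956830, followed with 17.5 RPKM (14.0 to 20.9), and each of its values lay below the lowest of Hist2h2aa2. Then came the H4 genes Hist1h4i (10.1 RPKM, 5.41 to 17.7), Hist1h4k (8.87 RPKM, 2.72 to 15.3) and Hist1h4h (5.34 RPKM, 1.49 to 9.54), and the H2B gene Hist1h2be (4.92 RPKM, 2.63 to 8.65), whose ranges overlapped from each to the next. The highest H3 gene was Hist2h3c2, with 3.30 RPKM (1.55 to 4.57), although it shares sequence with a more abundant transcript.

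**Figure D2:**
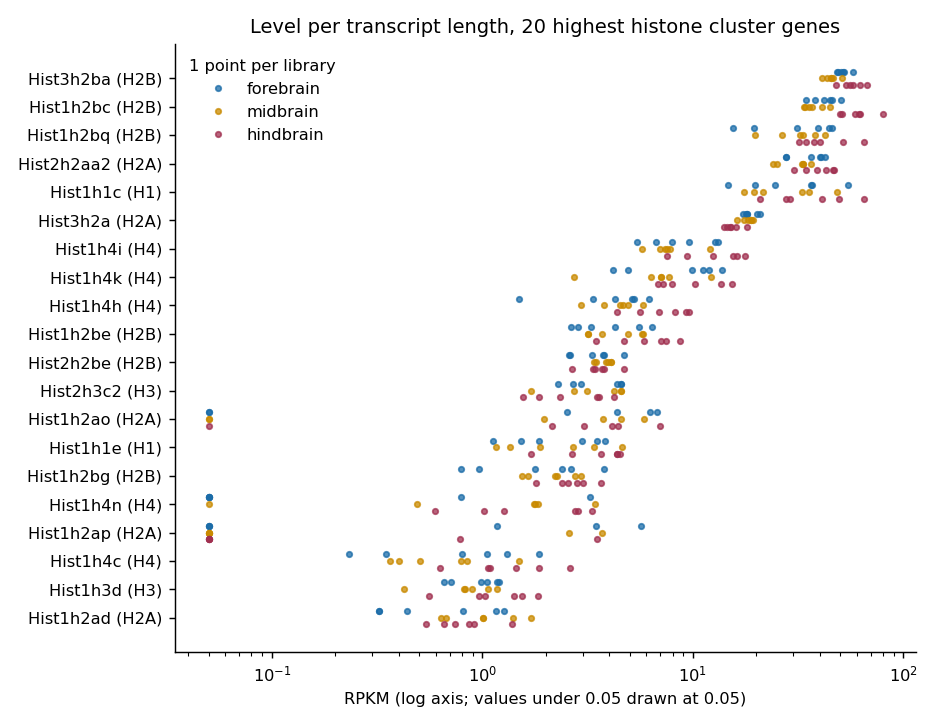
RPKM (log axis) of the 20 histone cluster genes with the highest mean, 1 point per library, coloured by region. Hist3h2ba at 51.4 RPKM and Hist1h2bc at 46.95 RPKM lead, and Hist1h2ao, Hist1h4n and Hist1h2ap have libraries with no count, drawn at the left edge.

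Read sharing limits what can be said of single members, since the genes encode nearly the same proteins and reads were split among them by estimate. All 31-base stretches of Hist2h2aa2 also occur in Hist2h2aa1 (100%), and 98.3% of those of Hist1h2bq occur in Hist1h2br. All of those of Hist2h2aa2 occur as well in Gm20634, a processed transcript outside the members. Hist2h2aa1 was at 0 in 15 of 18 libraries, whereas Gm20634 had a median of 15.56 CPM beside 15.82 for Hist2h2aa2, so that the division of reads between these last 2 is an estimate. Hist1h2bq (median 8.999 CPM) and Hist1h2br (0.55 CPM) are likewise best read as a pair. Of the 31-base stretches of Hist2h3c2, 64.2% occur in Gm20634, whose level is above the 3.56 CPM of Hist2h3c2. The shared part was 37.2% for Hist3h2ba, 32.6% for Hist1h2bc, 32.1% for Hist3h2a and 11.4% for Hist1h1c. The part shared by Hist1h1e and Hist1h2be comes from the overlap of their annotated transcripts on the minus strand of chromosome 13, and made up 24.5% of Hist1h1e.

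By histone, H2B genes led in the mean of every region, though not in every library. H1 genes were above them in WT forebrain 2 (92.8 against 88.3 CPM) and WT midbrain 2 (84.1 against 78.9 CPM). The summed level of H2B genes was 79.7 ± 7.72 CPM (SD, n = 6 libraries) for forebrain, 74.2 ± 3.64 for midbrain and 103.3 ± 13.4 for hindbrain. In the same order this was 39.4%, 39.2% and 43.2% of the level summed over all 67 genes. H2A genes gave 27.7%, 27.5% and 21.5%, and H1 genes 24.8%, 25.4% and 26.9%. H4 genes gave 5.20%, 4.85% and 5.80% and H3 genes 2.79%, 2.95% and 2.59%. The sums are means over libraries of CPM, which does not allow for length, and so they weigh the long H1 transcripts more than the short H4 ones.

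Histone genes outside the clusters, most of which make polyadenylated mRNA, gave the level to set beside these. H3f3a and H3f3b, which encode the replication-independent histone H3.3, had means of 253.9 and 152.3 RPKM. H2afz, which encodes the H2A.Z variant, had 125.8 RPKM, and H1f0, the linker histone of differentiated cells, 70.5 RPKM. The highest H3 gene of the clusters, Hist2h3c2, was at 3.30 RPKM, with the sharing given above.

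The comparison of regions asked whether the levels of these genes in the poly(A)-selected libraries differ along the brain, averaged over both genotypes. The counts do not tell tailed from tailless transcripts of a gene. Most of the members that differed were higher in hindbrain. Between forebrain and hindbrain 5 of 29 tested members had an adjusted p under 0.05 in edgeR's quasi-likelihood test with Benjamini-Hochberg adjustment over all 20363 genes tested. Of these, 3 were higher in hindbrain, where 25.3% of all genes tested were called, and 2 were higher in forebrain, where 26.4% were. Between midbrain and hindbrain 7 of 29 were called, with 6 higher in hindbrain, against 24.0% of all genes, and 1 higher in midbrain, against 25.1%. Between forebrain and midbrain 0 of 29 were called, against 9.38% of all genes higher in forebrain and 9.96% higher in midbrain, and 1 member had an unadjusted p under 0.05, while DESeq2 also called 0. The called share of the members was thus not above that of all genes in any of these comparisons. Over the tested members the median log2 difference was -0.38 for forebrain minus hindbrain (-0.01 over all genes), -0.44 for midbrain minus hindbrain (-0.03) and 0.15 for forebrain minus midbrain (0.02). Both comparisons with hindbrain use the same hindbrain libraries.

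Hist1h2bc showed the clearest difference between regions. Its 6 hindbrain libraries ran from 37.96 to 60.4 CPM (median 45.6), its 6 midbrain libraries from 25.6 to 34.1 CPM (median 27.5) and its 6 forebrain libraries from 26.2 to 38.3 CPM (median 32.9). No hindbrain library was as low as any midbrain one, and hindbrain and forebrain overlapped in the lowest hindbrain value. The level in hindbrain was 1.60-fold that in midbrain (log2 difference, midbrain minus hindbrain, -0.68 ± 0.12 SE, adjusted p = 0.000167) and 1.42-fold that in forebrain (-0.51 ± 0.12 SE, adjusted p = 0.00158).

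Of the 8 H4 genes tested, Hist1h4h and Hist1h4i were called higher in hindbrain and Hist2h4 lower, as given further on. Hist1h4h was at 0.47 to 1.98 CPM in forebrain, 0.94 to 1.84 in midbrain and 1.38 to 3.04 in hindbrain. It was 1.78-fold higher in hindbrain than in forebrain (adjusted p = 0.0098) and 1.66-fold higher than in midbrain (adjusted p = 0.0204), although both ranges overlapped that of hindbrain. Hist1h4i was at 2.85 to 6.00 CPM in midbrain and 3.73 to 8.81 CPM in hindbrain, 1.67-fold higher in hindbrain (adjusted p = 0.0139). In forebrain Hist1h4i was at 2.69 to 6.54 CPM, and the difference from hindbrain had an adjusted p of 0.061. Hist1h4k, Hist1h4c, Hist1h4j, Hist1h4n and Hist4h4 did not pass the test in any pair of regions.

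Among the others, Hist1h2be had a mean of 7.18 ± 2.64 CPM in forebrain and 10.7 ± 3.29 in hindbrain (SD, n = 6), 1.56-fold higher in hindbrain (adjusted p = 0.024). Hist2h2aa2 had 13.8 ± 2.23 CPM in midbrain and 17.8 ± 2.94 in hindbrain, 1.29-fold higher in hindbrain (adjusted p = 0.0302). Hist3h2ba had 18.9 ± 1.39 CPM in midbrain and 23.8 ± 2.75 in hindbrain, 1.26-fold higher in hindbrain (adjusted p = 0.00278). Hist1h2bl was called higher in hindbrain than in midbrain (adjusted p = 0.0339) on counts that were 0 in 5 of 6 midbrain and 2 of 6 hindbrain libraries, never above 25, and 88.6% of its 31-base stretches are shared.

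Only 2 of the 29 tested members were called lower in hindbrain. Hist3h2a was at 33.2 to 40.1 CPM in forebrain, 30.99 to 36.9 in midbrain and 26.8 to 34.8 in hindbrain. Its mean was 1.21-fold higher in forebrain (adjusted p = 0.00434) and 1.18-fold higher in midbrain (adjusted p = 0.0142) than in hindbrain. Hist2h4, an H4 gene whose transcript runs 1257 bases past the stem-loop, was 1.56-fold higher in forebrain (1.41 ± 0.34 CPM) than in hindbrain (0.919 ± 0.258 CPM, adjusted p = 0.00858). Hist3h2a and Hist3h2ba, which lie within the same stretch of chromosome 11, thus had opposite signs against hindbrain. Part of the Hist3h2a transcript (32.1% of its 31-base stretches) is shared with Trim17.

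**Figure D3:**
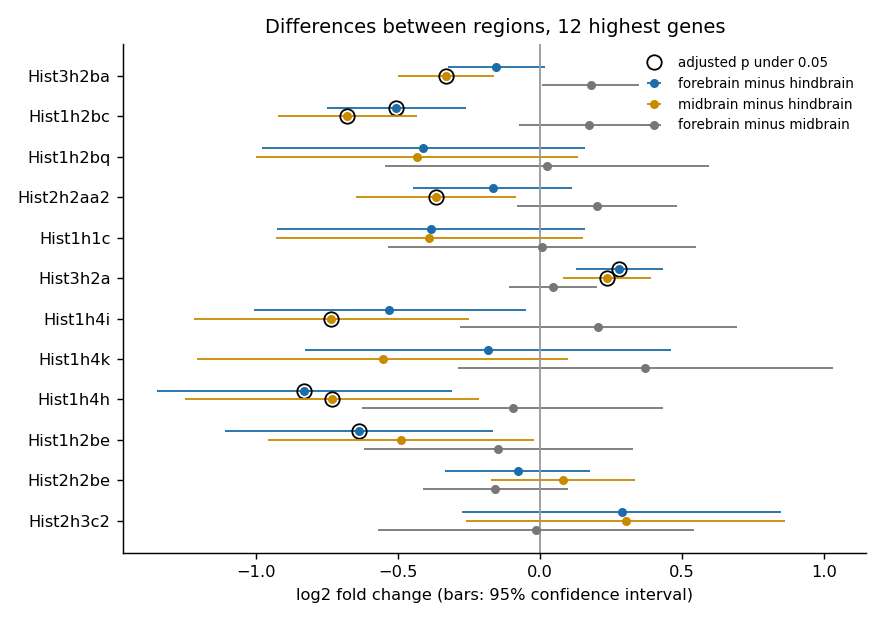
Log2 fold change between regions (points, first minus second region named) with 95% confidence intervals (bars) for the 12 histone cluster genes with the highest RPKM. Circled points have an adjusted p under 0.05, and Hist3h2a is the only gene circled right of 0, at 0.28 and 0.23.

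Because the 3 regions were taken from the same 6 mice, the regions were also compared within mice. With the mouse as a replicate block, 9 members in place of 5 were called between forebrain and hindbrain, the same 5 with Hist1h1c, Hist1h1e, Hist1h2bq and Hist1h4i, where 50.8% of all genes were called. The forebrain libraries labelled replicate 3 put this pairing in doubt, since their deviations from the group means had correlations over genes of -0.052 and -0.17 (Fmr1CRE 3) and -0.12 and -0.072 (WT 3) with those of the same mice's midbrain and hindbrain. In the other 4 mice these correlations ran from -0.015 to 0.18. With the block and without both mice of replicate 3, an alternative added after the data were seen, the same 9 were called between forebrain and hindbrain (45.6% of all genes), and the same as with the block between midbrain and hindbrain except Hist3h2a, 9 in all (44.5%). Within mice Hist1h1c was 1.27-fold higher in hindbrain than in forebrain (adjusted p = 0.0165) and 1.32-fold higher than in midbrain (adjusted p = 0.00776). Between midbrain and hindbrain 10 members were called in place of 7 (47.8% of all genes), with Hist1h1c, Hist1h1e, Hist1h2be and Hist1h2bq added and Hist1h2bl lost (adjusted p = 0.0843). All those added were higher in hindbrain. Without WT mouse 1, 2 members (Hist1h2bc and Hist3h2a) were called between forebrain and hindbrain (43.6% of all genes), and 3 (Hist1h2bc, Hist3h2a and Hist3h2ba) between midbrain and hindbrain (37.7%). The same 3 were called between midbrain and hindbrain without Fmr1CRE mouse 3 (42.1%), and Hist1h2bc, Hist2h2aa2 and Hist3h2ba without both mice of replicate 3 (43.0%). Without both mice of replicate 3, 4 members were called between forebrain and hindbrain (43.4%), the 5 without Hist3h2a.

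Some RNAs that carry no poly(A) tail also were higher in hindbrain. Of 11 such RNAs, among them the signal recognition particle RNA and 7SK, 4 passed the filter and 3 of these 4 were called higher in hindbrain in both comparisons. Of all genes tested, 25.3% were called higher in hindbrain than in forebrain and 24.0% higher than in midbrain. The level summed over those in the table was 3.87 to 8.69 CPM in forebrain, 6.62 to 8.73 in midbrain and 11.15 to 31.8 in hindbrain, highest in WT replicate 1. Choroid plexus markers were also high in hindbrain, 908.7 to 3247 CPM against 175.3 to 493.5 in midbrain and 370.9 to 879.5 in forebrain. All 5 blood genes were called higher in hindbrain in both comparisons, against the same 25.3% and 24.0% of all genes. Their summed level was 1058 to 2709 CPM in hindbrain, 441.6 to 1021 in midbrain and 505.8 to 1547 in forebrain. The part of any of these in the histone differences was not tested. Of 21 genes of DNA replication and the cell cycle 8 were called higher and 3 lower in forebrain than in hindbrain. Of all genes tested, 26.4% were called higher and 25.3% lower in forebrain. Of 14 genes for histone gene expression and 3′ end processing 2 were called higher and 3 lower in forebrain than in hindbrain. Neither share was above that of all genes. The stem-loop binding protein gene Slbp was among the 3 called lower, with 18.6 to 22.4 CPM in forebrain and 28.4 to 33.4 in hindbrain (log2 difference -0.61 ± 0.08 SE, adjusted p = 9.62e-06).

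The comparison of genotypes asked whether the variant of the Fmr1 element changed gene expression in each region. Fmr1 itself ranged from 51.1 to 83.4 CPM over all groups, and in each region the range of WT held that of Fmr1CRE. The libraries of both forebrains labelled replicate 3 need a caution. Among genes that differed between these 2 mice by over 0.5 on the log2 scale in both other regions, with the same sign in each, 242 of 334 (72.5%) ran the opposite way in forebrain, against 140 of 303 (46.2%) for replicate 1 and 175 of 372 (47.0%) for replicate 2. Whether these 2 libraries were exchanged cannot be told from the labels. If they were, any member whose forebrain groups do not overlap would have overlapping groups, since the higher value of replicate 3 would then stand with Fmr1CRE and the lower with WT. The forebrain genotype values below are as labelled. Values without both mice of replicate 3 stand beside the counts of members with an unadjusted p under 0.05 or with separate groups. They also stand beside the log2 differences of Hist1h1c, Hist1h1e, Hist1h2be, Hist2h3c2, Hist3h2a and Hist3h2ba. The DESeq2 calls, the summed levels and H1f0 are as labelled only.

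No member passed the test between genotypes in any region. In forebrain 0 of 23 tested members were called (0% of all 18467 genes tested), in midbrain 0 of 25 (0.00543%) and in hindbrain 0 of 28 (0%). In forebrain, however, 7 of the 23 had an unadjusted p under 0.05, all of them lower in Fmr1CRE, where 2.39% of all genes were. In 8 of the 23 the 3 Fmr1CRE libraries lay below the 3 WT libraries, as in 5.99% of all genes, and in none did they lie above. The median log2 difference, Fmr1CRE minus WT, was -0.39 over the 23 members and 0.00095 over all genes. Without both mice of replicate 3, 5 of 25 tested members had an unadjusted p under 0.05, all lower in Fmr1CRE (4.98% of all genes), 9 had 2 Fmr1CRE libraries below the 2 of WT (29.5%), and the median was -0.30 (-0.009 over all genes). RNAs that carry no poly(A) tail, 10 of which were in the table, lay the other way in forebrain as labelled. The most abundant of them, Rn7s1, had overlapping groups, 4.9 to 6.67 CPM in Fmr1CRE and 2.42 to 5.28 in WT. The summed level was 8.15 to 8.69 CPM in Fmr1CRE and 3.87 to 7.18 in WT, which did not overlap. These summed groups would overlap if the forebrain libraries of replicate 3 were exchanged. In midbrain the same sum was lower in Fmr1CRE, 6.62 to 7.62 against 8.24 to 8.73 CPM, and in hindbrain it overlapped, 11.15 to 15.04 against 11.6 to 31.8 CPM. The 2 of these RNAs tested in forebrain were not called, and their part in the histone values was not tested. In midbrain 0 members had an unadjusted p under 0.05 (3.35% of all genes, lower in Fmr1CRE) and 0 had groups that did not overlap (4.91% of all genes, in the same direction). In hindbrain 0 members had such a p (2.13%), and Hist2h4 and Hist3h2a had 3 Fmr1CRE libraries below the 3 of WT (5.69%). Without both mice of replicate 3, 3 of 24 members in midbrain (7.40% of all genes) and 5 of 28 in hindbrain (5.45%) had an unadjusted p under 0.05, all lower in Fmr1CRE. In the same setting 0 members were called in midbrain (0.0163% of all genes) and 0 in hindbrain (0.00515%), and both Fmr1CRE libraries lay below both of WT in 10 of 24 members in midbrain (23.5%) and in 14 of 28 in hindbrain (23.3%).

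Hist1h1c had the lowest p among the members in forebrain. Its 3 Fmr1CRE libraries were at 22.7, 30.7 and 38.1 CPM and its 3 WT libraries at 56.8, 85.03 and 57.4 CPM. Every Fmr1CRE value was below every WT value, and the difference was -1.10 ± 0.22 SE on the log2 scale (95% confidence interval -1.61 to -0.59, edgeR adjusted p = 0.806). DESeq2 on the same genes called Hist1h1c (adjusted p = 0.005) and Hist1h1e (adjusted p = 0.0286) among 31 genes in all (0.168%), and no other member.

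In midbrain Hist1h1c was at 27.0, 30.4 and 55.5 CPM in Fmr1CRE and 51.2, 75.1 and 33.5 CPM in WT. In hindbrain it was at 32.4, 43.2 and 63.9 CPM in Fmr1CRE and 76.3, 101.0 and 44.96 CPM in WT. In both regions the third mouse of each genotype turned the order round, so that the groups overlapped. The log2 differences were -0.50 ± 0.35 SE (adjusted p = 0.852) in midbrain and -0.69 ± 0.33 SE (adjusted p = 0.875) in hindbrain. Without both mice of replicate 3 the differences were -1.36 for forebrain, -1.13 for midbrain and -1.25 for hindbrain, with adjusted p of 0.163, 0.242 and 0.202 in edgeR on 2 against 2 mice.

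The replicate 3 libraries also differed from the others in counts of members, each taken between 1 Fmr1CRE and 1 WT mouse. Of the 29 members, 18 were lower in Fmr1CRE 3 than in WT 3 in forebrain, but 7 in midbrain and 8 in hindbrain. For replicate 1 the numbers lower in Fmr1CRE were 15, 21 and 24, and for replicate 2 they were 25, 21 and 20. The share over all genes is not given for these counts. The mice compared share only a number, so the counts describe single mice and not the genotypes. With the counts of a mouse's 3 regions added up, 0 of 32 tested members were called (0.00451% of all genes), with Hist1h1c at -0.75 ± 0.28 SE and an adjusted p of 0.998. In these sums 2 members had an unadjusted p under 0.05, both lower in Fmr1CRE (1.76% of all genes), and the groups of 1 did not overlap, also lower in Fmr1CRE (4.09%). The sums join each forebrain library of replicate 3 to the mouse of its label, a pairing in doubt as given above. The difference between genotypes did not vary by region past the threshold for any of 29 members (0% of all genes called), and 2 of 29 had an unadjusted p under 0.05 in this test, against 7.54% of all genes. This test took the regions of a mouse as independent and held both forebrain libraries of replicate 3.

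The other members with non-overlapping forebrain groups were Hist1h1e, Hist1h2be, Hist1h2ac, Hist2h3c2, Hist2h2be, Hist2h2aa2 and Hist1h4h, most of which are named here after their values were seen. Hist1h1e, which encodes the linker histone H1.4, was at 1.98, 3.25 and 2.68 CPM in Fmr1CRE and 5.20, 6.69 and 6.15 CPM in WT forebrain. Its log2 difference was -1.16 ± 0.24 SE (edgeR adjusted p = 0.806). Hist1h2be, which overlaps it, was at 4.54, 4.94 and 5.67 CPM in Fmr1CRE and 7.35, 9.56 and 11.04 CPM in WT, a log2 difference of -0.85 ± 0.20 SE. Hist2h3c2, the leading H3 gene, 64.2% of which is shared with Gm20634, was at 2.45, 2.88 and 3.15 CPM in Fmr1CRE and 4.89, 4.68 and 4.89 CPM in WT, a log2 difference of -0.74 ± 0.19 SE. All of these had the same adjusted p of 0.806 in edgeR. Without both mice of replicate 3 the differences were -1.14 for Hist1h1e, -0.78 for Hist1h2be and -0.79 for Hist2h3c2, with adjusted p of 0.286, 0.302 and 0.309 in edgeR.

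Both genes of chromosome 11 had overlapping groups. Hist3h2a had a forebrain log2 difference near 0 (95% confidence interval -0.27 to 0.27) and Hist3h2ba one of 0.10 (-0.19 to 0.39), which leave out a change as large as that of Hist1h1c. Without both mice of replicate 3 the differences were -0.081 for Hist3h2a and 0.139 for Hist3h2ba. Among histones outside the clusters 0 of 11 were called between genotypes in any region. H1f0 had 86.6, 98.9 and 131.6 CPM in Fmr1CRE and 118.4, 160.0 and 140.5 CPM in WT forebrain, overlapping groups with a log2 difference of -0.38 ± 0.17 SE (adjusted p = 0.806).

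**Figure D4:**
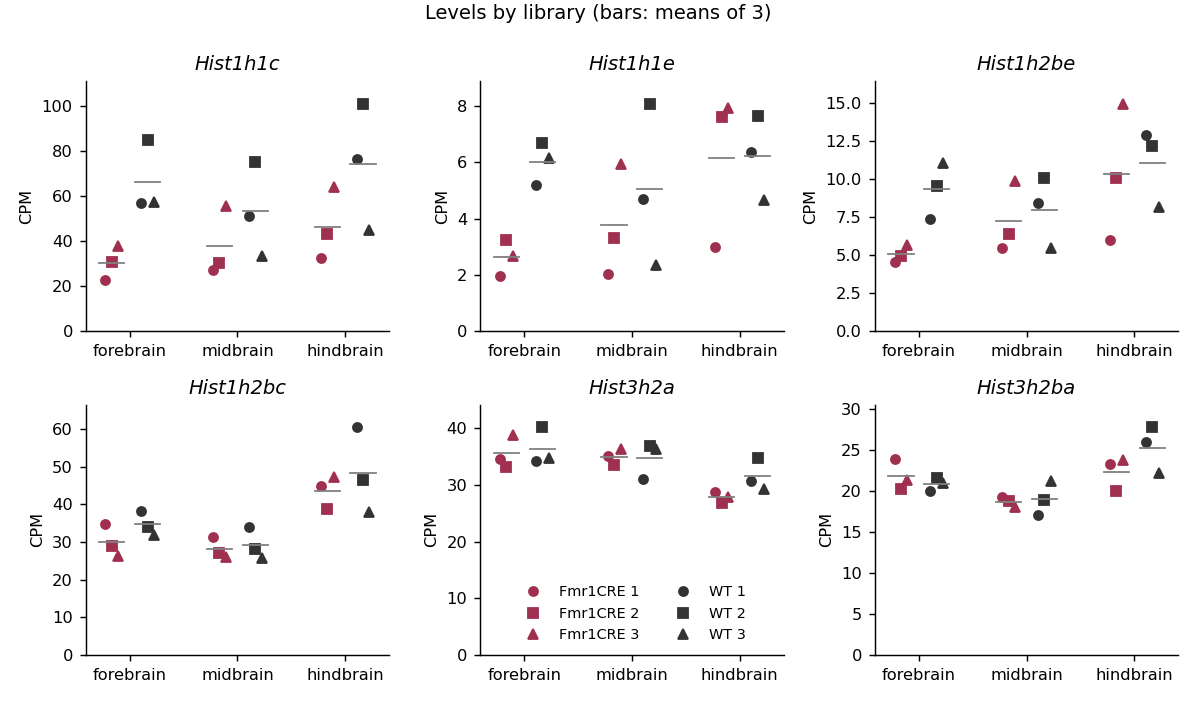
CPM of 6 histone cluster genes in each of the 18 libraries, by region, with genotype as colour, replicate number as symbol and the mean of 3 libraries as a bar. In Hist1h1c the Fmr1CRE libraries of forebrain sit between 22.7 and 38.1 CPM and those of WT between 56.8 and 85.03 CPM, while the triangles of replicate 3 change places in midbrain and hindbrain, and Hist3h2a and Hist3h2ba stay within a narrow band.

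Members differed in how far mice of 1 group lay apart. The biological coefficient of variation, the spread between libraries of a group beyond counting error, was 0.306 for Hist1h1c, where the trend over all genes at that level was 0.156. Its ratio to the trend, 1.97, was at the 96.4th percentile of all genes tested. The spread was also above the trend for Hist1h1e (0.376 against 0.276), Hist1h2bq (0.325 against 0.231) and Hist1h2be (0.271 against 0.235). It was below the trend for Hist3h2a (0.0982 against 0.163), Hist3h2ba (0.106 against 0.175), Hist2h2be (0.152 against 0.237) and Hist2h4 (0.179 against 0.374). In all, 15 of 29 members lay above the trend, as did 28.1% of all genes, and the median ratio was 1.01 over the members and 0.791 over all genes.

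The spread of Hist1h1c followed the mouse across midbrain and hindbrain. In both regions the order from the lowest to the highest was Fmr1CRE 1, Fmr1CRE 2, WT 3, then WT 1 and Fmr1CRE 3 in either order, and WT 2. In forebrain Fmr1CRE 1 was again the lowest and WT 2 the highest. Between them the order differed, with Fmr1CRE 3 (38.1 CPM) below WT 3 (57.4 CPM). Leaving out Hist1h1c, the summed level of the other 66 genes was 138.9 to 146.7 CPM in Fmr1CRE and 160.3 to 182.0 CPM in WT forebrain, which did not overlap as labelled. The forebrain libraries of replicate 3 were at 138.9 CPM (Fmr1CRE) and 171.8 CPM (WT), so these groups would overlap if both were exchanged. In midbrain the sums were 133.9 to 155.3 and 136.3 to 162.3 CPM, and in hindbrain 157.8 to 191.6 and 154.8 to 209.0 CPM, which overlapped.

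The largest spread of all was in genes with little sequence of their own. Hist2h3c1 (H3), Hist1h2ao and Hist1h2ap (both H2A) had the largest deviations around their group means, SDs of 1.37, 1.08 and 0.90 on the log2 scale. Hist2h3c1 was at 0 in 9 of 18 libraries and reached 3.32 CPM in others, and all its 31-base stretches occur in Gm20634. Hist1h2ao was at 0 in 5 libraries and Hist1h2ap in 11, but their sum was at 0 in none and ran from 0.682 to 2.61 CPM. The 6 members with a coefficient of variation over 1 shared 87.5% to 100% of their 31-base stretches with another gene. For these genes a difference in level and a difference in how reads were divided between copies cannot be told apart.

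**Figure D5:**
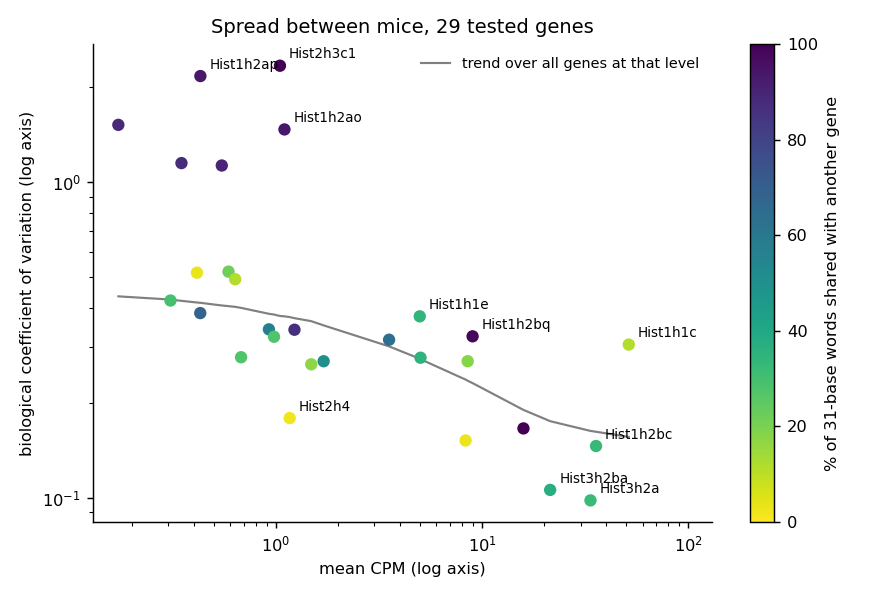
Biological coefficient of variation (log axis) of the 29 tested histone cluster genes against mean CPM (log axis), coloured by the percentage of 31-base stretches shared with another gene, with the trend over all genes at that level as a line. Hist1h1c lies above the line at 0.306, Hist3h2a and Hist3h2ba below it at 0.0982 and 0.106, and all 6 genes over 1 are dark.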

How the data were processed

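Per the labels and the study's methods, the authors ran the bcbio_nextgen pipeline on mm10 and estimated transcript levels with Salmon 0.14.0. The deposited gene table holds whole-number counts, imported per gene from the Salmon estimates, and the deposited Salmon files hold expected counts (estimated counts) and effective lengths per transcript. Annotation of the pipeline and its library-type setting are not given in the sources used here. Because several Salmon file names did not match the sample records they were attached to, these files were used only pooled over all 18 libraries, for effective lengths and for the leading transcript of a gene. The deposited variance-stabilized values, which per the labels came from DESeq2 1.30.1, were not used here.

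Gene symbols, coordinates and transcript sequences came from GENCODE M21 (GRCm38, the build named mm10), which matched 53363 of 53468 identifiers. The rest held 0.0438% of counts. Counts were filtered with filterByExpr, scaled by TMM and tested with edgeR 4.0.16's quasi-likelihood test, with Benjamini-Hochberg adjustment over all genes tested and a threshold of 0.05. Genotypes were compared within each region (3 against 3), over counts summed per mouse, and for a difference between regions in all 18 libraries. Regions were compared in 1 fit of 6 groups. CPM used TMM factors of all 18 libraries, and RPKM divided CPM by the mean effective length. For log2 values of single libraries 0.5 CPM was added. The biological coefficient of variation is the square root of edgeR's tagwise dispersion. The range of depths, 22455512 to 28061185 counts, leaves counting error small for genes such as Hist1h1c, with 574 to 3061 counts per library. Counting error was larger for Hist1h4k (11 to 57 counts) and Hist1h4h (12 to 82), although both are among the 10 leading genes by RPKM. It was large for genes with under 1 RPKM, and intervals over libraries include it. The mice are separate animals, 3 per genotype.

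The regions of a mouse share an animal by the labels, so the mouse was used as a block for the region comparisons, although both forebrain libraries of replicate 3 ran against the same mice's other regions. The block without both mice of replicate 3 was added after the data were seen. Same-numbered mice of different genotype share only a number. The members and gene lists were chosen with earlier results of these data known, and the rule for them used symbols only. Named members were the 10 with the highest mean RPKM, each with an adjusted p under 0.05 in a genotype test (none), up to 5 in each direction per pair of regions called with the largest difference, and the 3 with the largest SD around their group means. Alternatives were DESeq2 1.42.0, its size factors in edgeR, no filter on low counts, 1 fit of all libraries, a replicate block, each library or mouse left out, and both mice of replicate 3 left out. The tests were checked on simulated counts with known changes.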

Additional observations from a re-analysis of the deposited data

How the results depend on the processing

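Of 82 alternative counts of called members 75 stayed within 1.5 times the main count. Most of these were counts of 0 that stayed at 0, in the genotype comparisons and between forebrain and midbrain. The other 7 moved, all but 1 of them in the comparisons with hindbrain. DESeq2 raised the forebrain genotype count from 0 to 2. The replicate block, here the mouse, raised the count between forebrain and hindbrain from 5 to 9, also 9 without both mice of replicate 3, and changed no genotype call of a member. Leaving out both mice of replicate 3 lowered the count between midbrain and hindbrain from 7 to 3. Leaving out 1 mouse at a time gave 2 to 6 called members between forebrain and hindbrain and 3 to 6 between midbrain and hindbrain, the lowest without WT mouse 1 in both, and also without Fmr1CRE mouse 3 in the latter. Every genotype count stayed at 0 with any 1 library left out. The cause was not tested in any of these. The log2 difference of Hist3h2a between genotypes in forebrain, near 0, changed sign under the replicate block, to 0.000363, ran up to 0.0746 with 1 library left out, and was -0.081 without both mice of replicate 3. Of 318 alternative values for single members 285 kept direction and side of the threshold, 28 lost the threshold, all in the region comparisons, 2 gained it and 3 changed sign. Same-numbered mice of different genotype did not deviate together (correlations over genes of -0.17 to 0.078), so the block on genotype has no meaning as a pairing. Depth limits statements on the 48 members under 1 RPKM.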
